A study of Homo sapiens with 101 samples.

Results

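MDM2, MDM4, PPM1D, CCNG1 and RCHY1 encode proteins that restrain p53, and all probe sets that the array's annotation assigns to one of these genes alone were followed across 11 compounds. They make up 23 of the 54613 probe sets that are no array controls, and 5 of the 19774 genes with a probe set of their own. MDM2 had 9, MDM4 7, RCHY1 4, PPM1D 2 and CCNG1 1. Of the 23, 20 had a mean log2 value of at least 4 in at least 1 of 17 groups and were tested. The other 3, 205385_PM_at and 237891_PM_at of MDM2 and 241876_PM_at of MDM4, had group means between 1.88 and 2.97, near the lower end of the arrays' values. Values below are deposited log2 values, and a difference of 1 on that scale is a 2-fold change of signal.

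The cells were HT1080, an established human fibrosarcoma line with intact p53, and every group was this one line in culture. Each compound was given at 1 dose, chosen by the submitters for a 1.5-fold rise of total p53, and the exposure time is not given in the sources used here. One set held 5 samples of MMC (mitomycin C, a DNA crosslinker, 0.1 µM), 6 of NCS (neocarzinostatin, which breaks DNA strands, 10 ng/ml), 5 of H2O2 (hydrogen peroxide, 100 µM), 6 of ENU (ethylnitrosourea, which ethylates DNA, 2 mM), 6 of GAD (known here by its code, 2 mM) and 6 of tBHQ (tert-butylhydroquinone, a phenolic antioxidant, 200 µM). They were set against 6 samples labelled DMSO_pooled, a tie inferred from the labels and from the like distribution of the arrays' values, with no label telling what the pool held. The other sets held 6 samples each of BRO (known here by its code, 600 µM) against 6 of BRO_DMSO, MMS (methyl methanesulfonate, which methylates DNA, 200 µM) against 6 of MMS_CTL, CUR (curcumin, 10 µM) against 6 of CUR_DMSO, ETP (etoposide, a topoisomerase II poison, 0.3 µM) against 6 of ETP_DMSO, and QUE (quercetin, a plant flavonol, 30 µM) against 6 of QUE_DMSO. Compounds were added from DMSO stocks, so the medium of treated cells held 0.1% of this vehicle. The label of MMS_CTL, unlike those of the other controls, does not name DMSO.

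The median of an array was lowest in the BRO set (2.885) and highest in the ETP set (3.537) and varied little within a set, so levels are compared only within a set. The 6 mesenchymal markers checked (VIM, CD44, LGALS1, S100A6, CAV1 and FN1) had means between 10.14 and 13.25 in all 17 groups, while the 12 epithelial, blood and endothelial markers stayed under 4 in each group, their highest mean being 3.99 for PECAM1. ETP replicate 2, QUE replicate 2 and MMS_CTL replicate 3 stood farthest from the other samples of their groups, at 2.13, 2.06 and 1.84 times their group's median distance, followed by tBHQ replicate 1 at 1.61, NCS replicate 1 at 1.53 and CUR_DMSO replicate 5 at 1.50. No label says that replicates were separate cultures, and a p-value here speaks only of the spread among the samples given, which may be technical.

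p53 is a transcription factor that DNA damage stabilizes, and several of the genes it switches on encode proteins that switch it off again. MDM2 is the ubiquitin ligase that marks p53 for destruction, and its relative MDM4 binds p53 and blocks its activity with little ligase activity of its own. PPM1D encodes Wip1, a phosphatase that removes damage-induced phosphates from p53 and from the kinases above it. CCNG1 encodes cyclin G1, which brings protein phosphatase 2A to MDM2, and RCHY1 encodes Pirh2, a further ubiquitin ligase of p53. The p53 transcript itself was not analysed here.

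MDM2 is transcribed from an upstream start and from a second start within its first intron, and the second is the textbook p53-dependent promoter. RefSeq windows of 250 bases before to 50 after each start (build GRCh38.p14) were found for all 5 genes, 12 windows in all. They were searched on both strands for the p53 consensus, a pair of half-sites of 20 bases with no spacer and at most 3 mismatches, and for the cyclic AMP response element TGACGTCA. The 3 windows below are shown because MDM2 and PPM1D carried nearly all of the response, with the matches in capitals. The first is the MDM2 intronic start (chr12:68808767-68809066, plus strand), which holds 2 p53 pairs that begin at -94 and -56 from the start, with 2 and 3 mismatches. The second is the MDM2 upstream start (chr12:68807922-68808221, plus strand), with no match. The third is PPM1D (chr17:60599943-60600242, plus strand), with no p53 pair and 1 cyclic AMP response element.
MDM2 intronic start: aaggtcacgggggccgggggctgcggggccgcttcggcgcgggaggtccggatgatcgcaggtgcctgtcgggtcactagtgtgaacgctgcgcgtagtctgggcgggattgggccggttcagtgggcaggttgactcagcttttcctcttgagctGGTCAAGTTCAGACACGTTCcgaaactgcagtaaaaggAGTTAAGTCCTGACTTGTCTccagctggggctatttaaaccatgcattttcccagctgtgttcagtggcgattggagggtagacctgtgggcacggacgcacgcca
MDM2 upstream start: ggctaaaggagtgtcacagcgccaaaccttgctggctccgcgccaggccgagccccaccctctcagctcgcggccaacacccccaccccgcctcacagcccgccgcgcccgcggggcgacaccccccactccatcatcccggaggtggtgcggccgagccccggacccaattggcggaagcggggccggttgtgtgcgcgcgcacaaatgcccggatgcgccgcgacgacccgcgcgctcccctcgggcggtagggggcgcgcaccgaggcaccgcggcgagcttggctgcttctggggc
PPM1D start: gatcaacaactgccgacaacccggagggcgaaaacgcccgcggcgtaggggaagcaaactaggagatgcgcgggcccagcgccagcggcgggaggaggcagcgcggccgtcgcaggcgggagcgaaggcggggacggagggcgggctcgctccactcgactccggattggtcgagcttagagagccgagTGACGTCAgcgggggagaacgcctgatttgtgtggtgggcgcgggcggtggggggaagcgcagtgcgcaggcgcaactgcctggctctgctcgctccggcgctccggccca
Of 35116 RefSeq windows of this kind, 5.2% held at least 1 such p53 pair, 0.31% held 2 or more, and 1.8% held the cyclic AMP response element. The windows of MDM4, CCNG1 and RCHY1 held neither. Sites outside the windows, or with a spacer, were not searched, so a window with no match does not show that a gene has no p53 site. A match of letters is a description of these windows and not a binding site, and the array does not tell the MDM2 starts apart.

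A probe set was called when its adjusted p (limma, Benjamini-Hochberg over 25479 probe sets) was under 0.05 and its fold change was at least 1.5, and "rose" and "fell" are kept for called changes. Member probe sets rose in 9 of the 11 compounds, and in no compound was one called lower. With GAD 11 of 20 rose, against 13.4% of all probe sets tested, and with QUE 10 of 20 rose, against 7.09%. Each of NCS, BRO, MMS and ETP had 9 of 20 called higher, against backgrounds of 1.08% for NCS, 3.14% for BRO, 4.36% for MMS and 1.46% for ETP. With H2O2 8 of 20 rose, against 0.495%, and with ENU 8 of 20, against 4.78%. MMC had 2 of 20, against 0.0863%. The H2O2 count was 4 without H2O2 replicate 5 and 5 without DMSO_pooled replicate 4, and the MMC count ranged from 1 to 3 when single samples were left out. None of the 20 was called with tBHQ, where 5.11% of all probe sets rose, or with CUR, where 1.05% rose. A count of 0 is near these shares and says little of the members. With single samples left out the count ranged from 0 to 1 in both compounds. By unadjusted p under 0.05 (limma), with no fold minimum, 9 of 20 were higher in CUR and 9 in MMC. In tBHQ 1 was higher and 3 were lower by this measure. Shares of all probe sets at this unadjusted cutoff are not given here.

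Nearly every call came from MDM2 and PPM1D. In NCS, GAD, BRO, MMS, ETP and QUE all 7 tested MDM2 probe sets rose, and in H2O2 and ENU 6 of 7 did. Both PPM1D probe sets rose in the same 8 compounds. CCNG1 rose in 1 compound, and MDM4 and RCHY1 each had 1 probe set called in 1 compound.

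**Figure D1:**
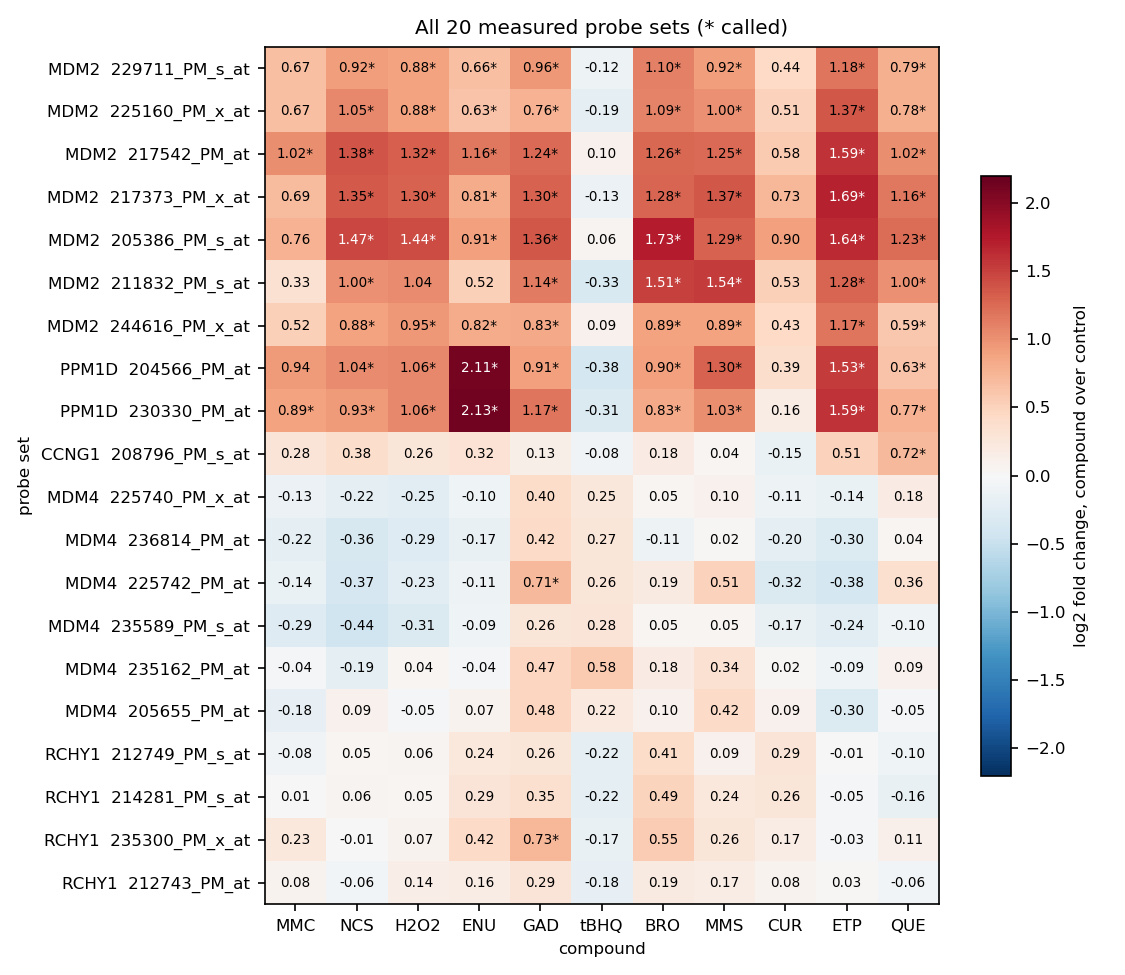
Log2 fold change of each of the 20 tested probe sets (down) in each compound over its control (across), with an asterisk for called changes. The MDM2 and PPM1D probe sets are called in 6 to 9 compounds each, and those of MDM4, CCNG1 and RCHY1 in 1 at most.

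For each gene, values in single samples are those of its brightest probe set, by the mean of all arrays. MDM2, read by 229711_PM_s_at, rose in 8 of 11 compounds by 1.58-fold to 2.27-fold, and in all of these 8 every treated sample was above every control sample. ETP gave the largest change. MDM2 ran from 10.72 to 11.11 in ETP samples (median 10.98), against 9.59 to 9.98 in ETP_DMSO samples (median 9.78). The change was 1.18 ± 0.10 (SE; adjusted p = 2e-05, limma), and without ETP replicate 2 it was 1.20. In BRO samples it lay between 10.10 and 10.61 (median 10.54), against 9.11 to 9.77 in BRO_DMSO samples (median 9.32). That is a change of 1.10 ± 0.12 (SE; adjusted p = 7.9e-05, limma), with 1 BRO_DMSO sample well above the other 5.

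GAD, MMS, NCS and H2O2 moved MDM2 by close to 1 on the log2 scale. GAD samples had 10.41 to 10.88 (median 10.65), against 9.33 to 10.03 in DMSO_pooled samples (median 9.69), a change of 0.96 ± 0.11 (SE; adjusted p = 7.7e-06, limma). MMS samples were tight, at 10.48 to 10.69 (median 10.67), against 9.45 to 9.87 in MMS_CTL samples (median 9.79). The MMS change was 0.92 ± 0.09 (SE; adjusted p = 1.1e-05, limma), and 0.87 without MMS_CTL replicate 3. The groups did not overlap in either compound. NCS samples had 10.47 to 10.84 (median 10.59), against the same DMSO_pooled samples, a change of 0.92 ± 0.11 (SE; adjusted p = 0.00083, limma). The 5 H2O2 samples had 10.48, 10.55, 10.58, 10.59 and 10.63, each above the highest DMSO_pooled sample, with a change of 0.88 ± 0.11 (SE; adjusted p = 0.0043, limma).

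QUE and ENU gave the smallest called changes of MDM2. QUE samples had 10.43 to 10.86 (median 10.59), against 9.43 to 9.99 in QUE_DMSO samples (median 9.86). The change was 0.79 ± 0.11 (SE; adjusted p = 0.0013, limma), and 0.74 without QUE replicate 2. ENU samples had 10.24 to 10.39 (median 10.35), against 9.33 to 10.03 in DMSO_pooled samples, a change of 0.66 ± 0.10 (SE; adjusted p = 0.00033, limma). The ENU group was narrow and lay above all 6 controls.

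MMC, CUR and tBHQ had no called change of this MDM2 probe set. The 5 MMC samples had 10.02, 10.28, 10.35, 10.50 and 10.63, and 4 of them lay above the highest DMSO_pooled sample of 10.03. The MMC change of 0.67 ± 0.13 had an adjusted p of 0.10 in limma without pairing, while blocking on the replicate number gave 0.60 with an adjusted p of 0.018. It was thus called in the blocked fit, for which the pairing check held in MMC. That fit used 5 pairs, without DMSO_pooled replicate 6, which at 9.33 was the lowest control. The blocked change of 0.60 was only just past 1.5-fold. Another MDM2 probe set, 217542_PM_at, had 8.13, 8.24, 8.26, 8.32 and 8.34 in MMC samples, against 6.98 to 7.61 in DMSO_pooled samples (median 7.14). It rose by 1.02 ± 0.13 (SE; adjusted p = 0.0081, limma), with no overlap.

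In CUR samples MDM2 had 9.30 to 10.00 (median 9.81), against 8.88 to 9.52 in CUR_DMSO samples (median 9.37), so 5 of 6 CUR samples lay above every control. The change of 0.44 ± 0.14 (SE) had an adjusted p of 0.098 (unadjusted 0.0067, limma), and without CUR_DMSO replicate 5 it was 0.36. With the replicate number as a block the CUR change passed the test (adjusted p = 0.016, limma) but was under 1.5-fold. The other MDM2 probe sets had changes of 0.43 to 0.90 in CUR, all in the same direction. Without the block 3 of them passed the test but stayed under 1.5-fold: 217542_PM_at at 0.58 (adjusted p = 0.034), 225160_PM_x_at at 0.51 (0.041) and 244616_PM_x_at at 0.43 (0.042, limma throughout). With tBHQ no rise was seen. The tBHQ samples had 9.43 to 9.70 (median 9.56), within the span of the DMSO_pooled samples, and the change was -0.12 ± 0.10 (SE; adjusted p = 0.43, limma). The 7 MDM2 probe sets ranged from -0.33 to 0.10 in tBHQ.

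Among the MDM2 probe sets, the size of the change differed by up to about 1 log2 unit within a compound, for which no test was made. In BRO they spanned 0.89 to 1.73, in ETP 1.17 to 1.69 and in MMS 0.89 to 1.54. The probe set 211832_PM_s_at was the one not called in H2O2 (1.04, adjusted p = 0.074, limma) and in ENU (0.52, adjusted p = 0.088, limma). Names ending in x_at mark probes that can also bind other transcripts, and 225160_PM_x_at, 217373_PM_x_at and 244616_PM_x_at were called in the same 8 compounds as the brightest probe set.

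**Figure D2:**
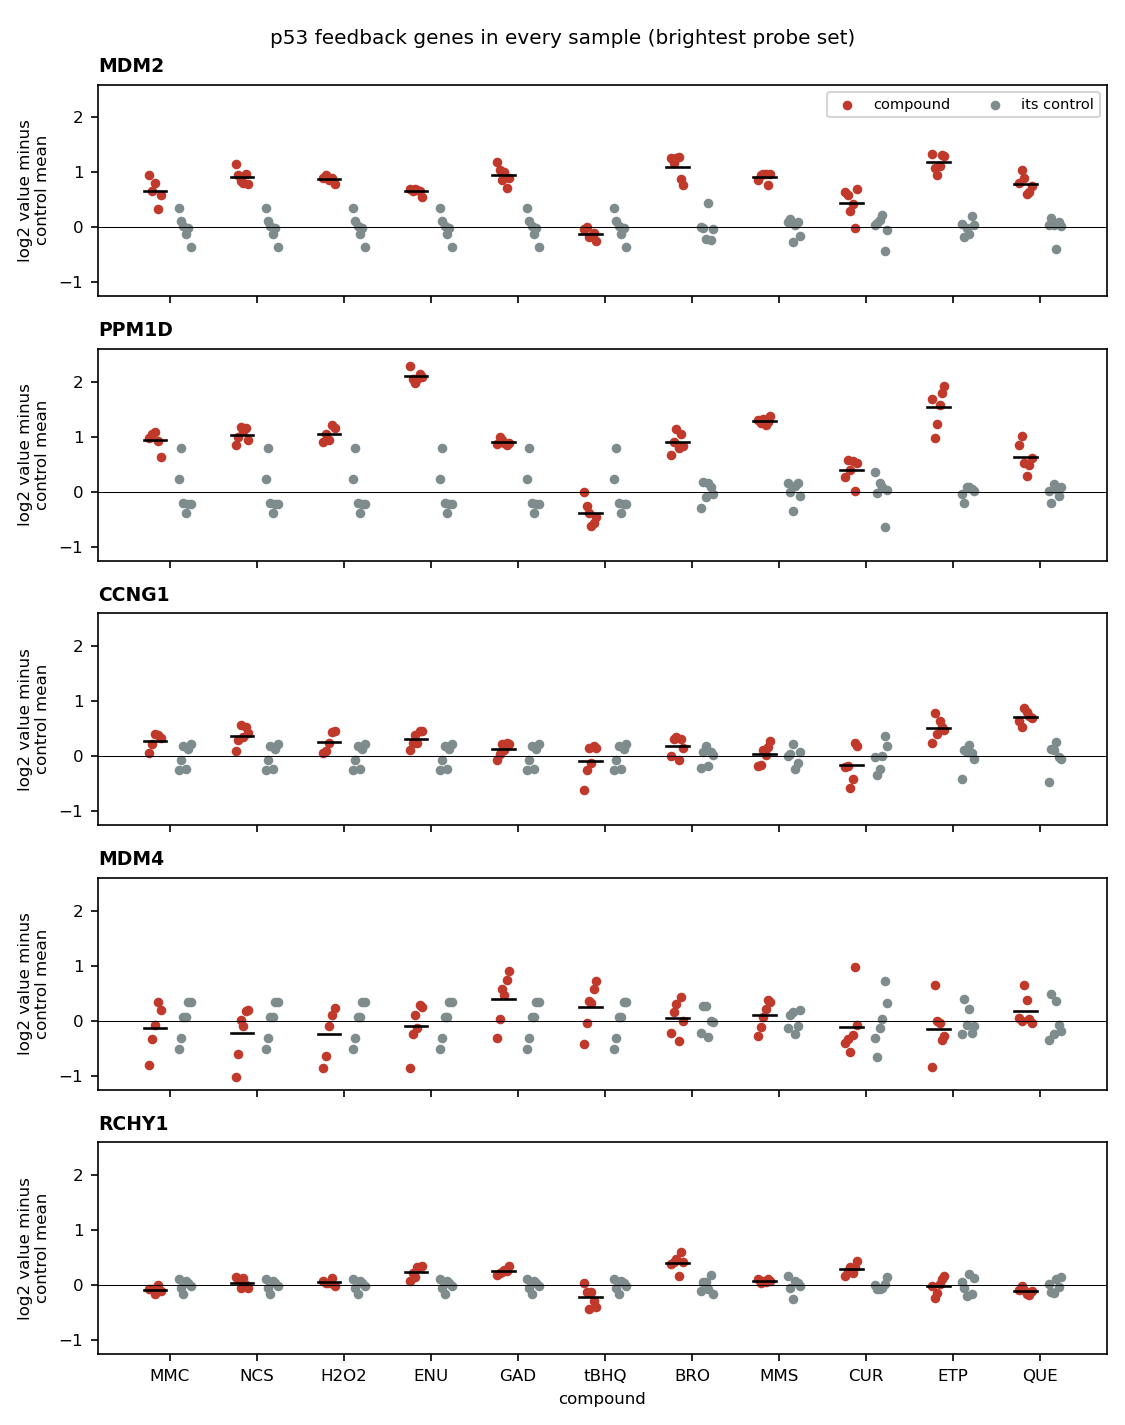
Log2 value of each sample minus the mean of its control group (vertical) for the brightest probe set of each gene, by compound (horizontal), with compound samples in red to the left, their controls in grey to the right and the compound mean as a line. MDM2 and PPM1D samples stand above their controls in 8 compounds, with ENU highest for PPM1D at a change of 2.11, and the samples of MDM4 and RCHY1 lie mostly among their controls.

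PPM1D, read by 204566_PM_at, rose in the same 8 compounds as MDM2 but over a wider range, from 1.55-fold in QUE to 4.30-fold in ENU. ENU samples had 9.74 to 10.05 (median 9.83), against 7.38 to 8.56 in DMSO_pooled samples (median 7.54). All 6 ENU samples lay more than 1 log2 unit above the highest control. The change was 2.11 ± 0.17 (SE; adjusted p = 2.8e-06, limma), and the second PPM1D probe set, 230330_PM_at, gave 2.13. In ETP samples PPM1D had 8.77 to 9.72 (median 9.42), against 7.59 to 7.87 in ETP_DMSO samples (median 7.83). The ETP change was 1.53 ± 0.15 (SE; adjusted p = 8.2e-05, limma), and 1.65 without ETP replicate 2.

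MMS samples had 8.61 to 8.78 for PPM1D (median 8.68), against 7.04 to 7.56 in MMS_CTL samples (median 7.44), a change of 1.30 ± 0.09 (SE; adjusted p = 1.1e-06, limma). Without MMS_CTL replicate 3 it was 1.23. The 6 MMS samples were closely spaced and all above the controls. NCS samples had 8.61 to 8.94 (median 8.81), against the DMSO_pooled samples above, a change of 1.04 ± 0.17 (SE; adjusted p = 0.0051, limma). GAD samples had 8.62 to 8.75 (median 8.65), a change of 0.91 ± 0.16 (SE; adjusted p = 0.00032, limma). Both groups lay just above DMSO_pooled replicate 2, which at 8.56 was the highest control, the next being 7.99. BRO samples had 7.56 to 8.03 (median 7.75), against 6.59 to 7.07 in BRO_DMSO samples (median 6.90), a change of 0.90 ± 0.10 (SE; adjusted p = 7.5e-05, limma).

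H2O2 and QUE were the less secure calls of PPM1D. The 5 H2O2 samples had 8.67, 8.71, 8.82, 8.92 and 8.97, all above the highest DMSO_pooled sample, with a change of 1.06 ± 0.19 (SE; adjusted p = 0.024, limma). The H2O2 call was lost without any 1 of 7 samples, where the change was 0.99 to 1.09 with adjusted p from 0.051 to 0.078 (limma). QUE samples had 8.13 to 8.86 (median 8.42), against 7.64 to 7.99 in QUE_DMSO samples (median 7.88). The QUE change was 0.63 ± 0.12 (SE; adjusted p = 0.0041, limma), and it fell under 1.5-fold without QUE replicate 1 (0.58) or without QUE replicate 2 (0.55).

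The 5 MMC samples had 8.39, 8.68, 8.74, 8.82 and 8.85 for PPM1D, and 4 of them lay above every DMSO_pooled sample. The MMC change of 0.94 ± 0.19 was not called (adjusted p = 0.12, limma), and without DMSO_pooled replicate 2 it was 1.10 (adjusted p = 0.0038, limma). The probe set 230330_PM_at, at 5.40, 5.53, 5.69, 5.80 and 5.86 in MMC samples against 4.55 to 5.29 in DMSO_pooled samples (median 4.66), rose by 0.89 ± 0.14 (SE; adjusted p = 0.025, limma). CUR samples had 7.37 to 7.93 (median 7.81), against 6.72 to 7.71 in CUR_DMSO samples (median 7.42), and the change of 0.39 ± 0.15 did not pass (adjusted p = 0.17, limma). The tBHQ samples had 7.13 to 7.76 (median 7.34), overlapping the low end of the controls, with a change of -0.38 ± 0.18 (SE; adjusted p = 0.15, limma). Blocked on the replicate number, both passed the test at under 1.5-fold, with an adjusted p of 0.033 in CUR (higher in 5 of 6 pairs) and 0.024 in tBHQ (lower in 6 of 6 pairs, limma). PPM1D thus had no rise with tBHQ, as MDM2 had none.

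MDM2 and PPM1D were set against each other array by array, by an exact two-sided permutation test over samples of their log2 difference, adjusted over 44 such tests of MDM2 against the other 4 genes. At the brightest probe set of each gene, PPM1D changed more than MDM2 in 3 compounds. MDM2 minus PPM1D was -1.45 in ENU, with all 6 ENU samples below all 6 controls, and -0.38 in MMS, again with all 6 below (adjusted exact p = 0.0079 for each). In ETP it was -0.35, with 5 of 6 samples below every control (adjusted exact p = 0.033). In the other 8 compounds the difference lay between -0.27 in MMC and 0.26 in tBHQ and did not pass, which does not show that both genes changed alike. Of the 3 compounds that passed, only ENU had every PPM1D probe set (2.11 to 2.13) above every MDM2 probe set (0.52 to 1.16). In MMS the changes were 1.03 to 1.30 for PPM1D and 0.89 to 1.54 for MDM2. In ETP they were 1.53 to 1.59 and 1.17 to 1.69, so the order in MMS and ETP depends on the probe set. Across the 11 compounds the changes of MDM2 and PPM1D had a Pearson r of 0.67. That value is a description, since 6 of the 11 changes share the DMSO_pooled samples.

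**Figure D3:**
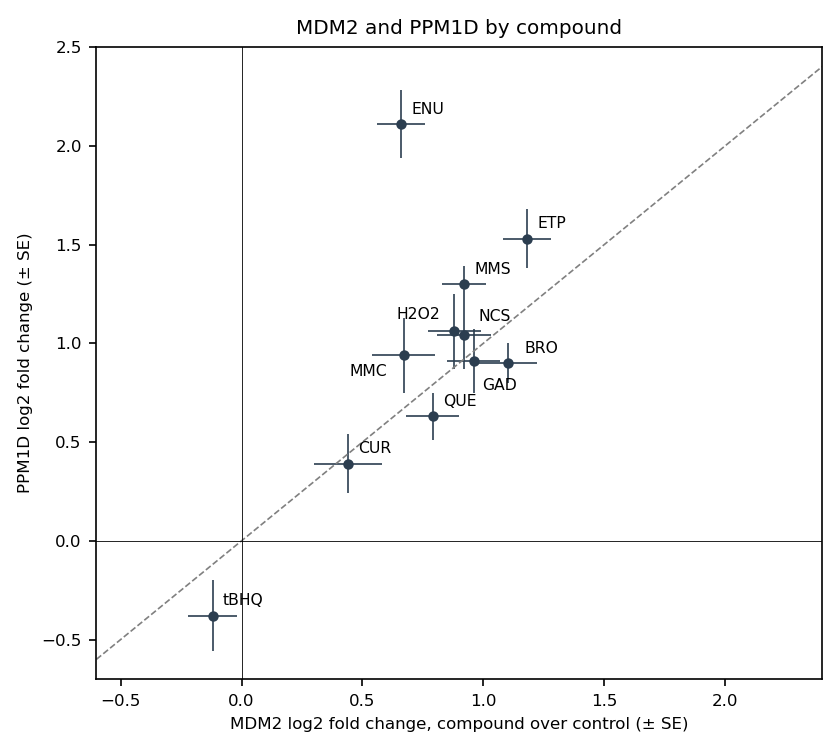
Log2 fold change of PPM1D (vertical) against that of MDM2 (horizontal) for each of the 11 compounds over its control, with bars of 1 SE and a dashed line of equal change. ENU, at 0.66 for MDM2 and 2.11 for PPM1D, lies farthest from the line, and tBHQ is below 0 on both axes.

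The 6 compounds of the DMSO_pooled set could also be compared directly with each other, without their control, in 15 pairs a gene (exact two-sided permutation, adjusted over 75 tests in all). For PPM1D 9 of 15 pairs passed. ENU samples averaged 9.86 ± 0.11 (SD, n = 6), above the means of 8.69 in MMC, 8.80 in NCS, 8.82 in H2O2, 8.67 in GAD and 7.38 in tBHQ. Each of these differences had an adjusted exact p of 0.0074, the smallest seen among the 75 tests. The remaining 4 pairs that passed set tBHQ below MMC, NCS, H2O2 and GAD.

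For MDM2 8 of 15 pairs passed, and the order was another one. GAD averaged 10.64 ± 0.16, NCS 10.61 ± 0.14, H2O2 10.57 ± 0.06, MMC 10.36 ± 0.23, ENU 10.34 ± 0.06 and tBHQ 9.57 ± 0.10 (SD, n = 5 for H2O2 and MMC and 6 otherwise). The neighbours GAD, NCS and H2O2 did not differ beyond their spread, nor did MMC and ENU. ENU lay below NCS, H2O2 and GAD with no overlap, by 0.26, 0.22 and 0.30 (adjusted exact p = 0.0074 for each). ENU thus had the highest PPM1D and a lower MDM2 than 3 of the other compounds in the same set. The tBHQ samples lay below all 5 other compounds (adjusted exact p = 0.0074 for each).

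CCNG1, whose single probe set 208796_PM_s_at was bright at group means of 11.07 to 12.34, was called in QUE alone. QUE samples had 12.16, 12.27, 12.33, 12.36, 12.44 and 12.50, against 11.16, 11.58, 11.61, 11.75, 11.77 and 11.89 in QUE_DMSO samples. The groups did not overlap, and the change was 0.72 ± 0.12 (SE; adjusted p = 0.0024, limma), with 0.75 without QUE replicate 2. In ETP all 6 samples, at 11.86 to 12.42 (median 12.12), also lay above all ETP_DMSO samples, at 11.21 to 11.83 (median 11.70). The ETP change of 0.51 ± 0.12 passed the test (adjusted p = 0.036, limma) but was 1.43-fold, and ENU likewise passed at 0.32 ± 0.10 (adjusted p = 0.036, limma), at 1.24-fold.

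In the other 8 compounds CCNG1 changed by -0.15 in CUR to 0.38 in NCS, with overlapping groups and no pass without the replicate block. The NCS value came with an adjusted p of 0.065 (unadjusted 0.0042, limma), and 5 of 6 NCS samples lay above every control. With the block CCNG1 passed the test at under 1.5-fold in NCS (0.38, adjusted p = 0.0023) and BRO (0.18, adjusted p = 0.026, limma), in both higher in 6 of 6 same-numbered pairs. MMS, which moved MDM2 by 0.92, left CCNG1 at 11.05 to 11.52 in MMS samples (median 11.30), against 11.01 to 11.45 in MMS_CTL samples (median 11.26), a change of 0.04 ± 0.10 (SE; adjusted p = 0.80, limma). Between compounds of the DMSO_pooled set, only NCS against tBHQ (0.46) and ENU against tBHQ (0.40) passed among 15 pairs (adjusted exact p = 0.026 for each). MDM2 changed more than CCNG1 in 6 compounds, by 0.54 in NCS, 0.62 in H2O2, 0.83 in GAD, 0.92 in BRO, 0.88 in MMS and 0.67 in ETP (adjusted exact p from 0.0079 to 0.036). In QUE the difference was 0.08 (adjusted exact p = 0.77).

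MDM4, the relative of MDM2, showed no called change at its brightest probe set, 225740_PM_x_at, whose probes can also bind other transcripts. Its samples were the most scattered of the 5 genes, with group SDs of 0.18 to 0.56. In the DMSO_pooled set this scatter ran with the replicate number, replicate 1 being the lowest sample of each group. DMSO_pooled had 7.86 in replicate 1 and 8.72 in replicate 6, and GAD had 8.06 and 9.28. The fit without the block counts this shared shift as spread. The 11 changes ran from -0.25 in H2O2 to 0.40 in GAD, and in every compound the groups overlapped. H2O2 samples had 7.52, 7.73, 8.28, 8.47 and 8.61, against 7.86 to 8.72 in DMSO_pooled samples (median 8.43), a change of -0.25 ± 0.22 (SE; adjusted p = 0.68, limma). GAD samples had 8.06 to 9.28 (median 8.89), against the same controls, a change of 0.40 ± 0.21 (SE; adjusted p = 0.11, limma). At the MDM4 probe set 225742_PM_at GAD samples had 5.65 to 7.24 (median 6.73), against 5.26 to 6.38 in DMSO_pooled samples (median 5.87). This was the 1 call of MDM4 without the block, at 0.71 ± 0.28 (SE; adjusted p = 0.045, limma), and the groups overlapped. At the dim MDM4 probe set 235162_PM_at all 6 tBHQ samples and all 6 GAD samples lay above every DMSO_pooled sample. Its changes were 0.58 ± 0.12 in tBHQ and 0.47 ± 0.13 in GAD (SE; adjusted p = 0.0033 and 0.0058, limma). Both passed the test and were not called, being under 1.5-fold, in tBHQ by a narrow margin. With the replicate number as a block the brightest MDM4 probe set passed the test, under 1.5-fold, in 3 compounds. It was higher in 6 of 6 pairs of GAD (0.40, adjusted p = 0.0006) and of tBHQ (0.25, adjusted p = 0.0048), and lower in 6 of 6 pairs of NCS (-0.22, adjusted p = 0.037, limma throughout). In H2O2 it was lower in 5 of 5 pairs and did not pass (adjusted p = 0.072, limma).

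ETP, with the highest MDM2 change, had 8.12 to 9.61 for MDM4 in ETP samples (median 8.81), against 8.73 to 9.36 in ETP_DMSO samples (median 8.88), a change of -0.14 ± 0.21 (SE; adjusted p = 0.76, limma). All 6 tested MDM4 probe sets were below 0 in ETP, from -0.38 to -0.09, and in MMC, from -0.29 to -0.04, with none called. All 6 were above 0 in GAD, from 0.26 to 0.71, in tBHQ, from 0.22 to 0.58, and in MMS, from 0.02 to 0.51. The probe set 205655_PM_at, counted among them, passed the filter only through its GAD and tBHQ means (4.31 at the highest). Its direction in GAD and tBHQ was thus partly set by the filter, and in ETP samples it was dim, at 2.85 to 3.26. Probe sets of 1 gene share the same RNA and are no independent evidence.

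MDM2 changed more than MDM4 in 6 compounds by the same permutation test. The difference was 1.32 in ETP and 0.82 in MMS, with all treated samples above all controls in both (adjusted exact p = 0.0079 for each). It was 1.14 in NCS (adjusted exact p = 0.021), 1.13 in H2O2 (0.024), 1.05 in BRO (0.012) and 0.61 in QUE (0.033), the last with 4 of 6 QUE samples above every control. In MMC (0.80), ENU (0.76), GAD (0.55), CUR (0.55) and tBHQ (-0.37) it did not pass. Single samples decided some of these calls: CUR passed without CUR replicate 5 (0.86, adjusted exact p = 0.019), MMC without DMSO_pooled replicate 1 (0.97), ENU without DMSO_pooled replicate 1 (0.93) or 2 (0.85), and QUE no longer passed without any 1 of 6 samples (0.47 to 0.62). When each treated sample was set against the control of the same number, the difference was above 0 in every pair of MMC, NCS, H2O2, ENU, GAD, BRO, MMS, CUR and ETP, in 5 of 6 pairs of QUE, and in none of the 6 pairs of tBHQ. In MMS, ETP and QUE the pairing check did not hold in every pair, so their pair counts carry no weight as pairs. With 6 pairs the smallest exact p from turning signs is 0.031, and after adjustment none passed (smallest 0.060).

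**Figure D4:**
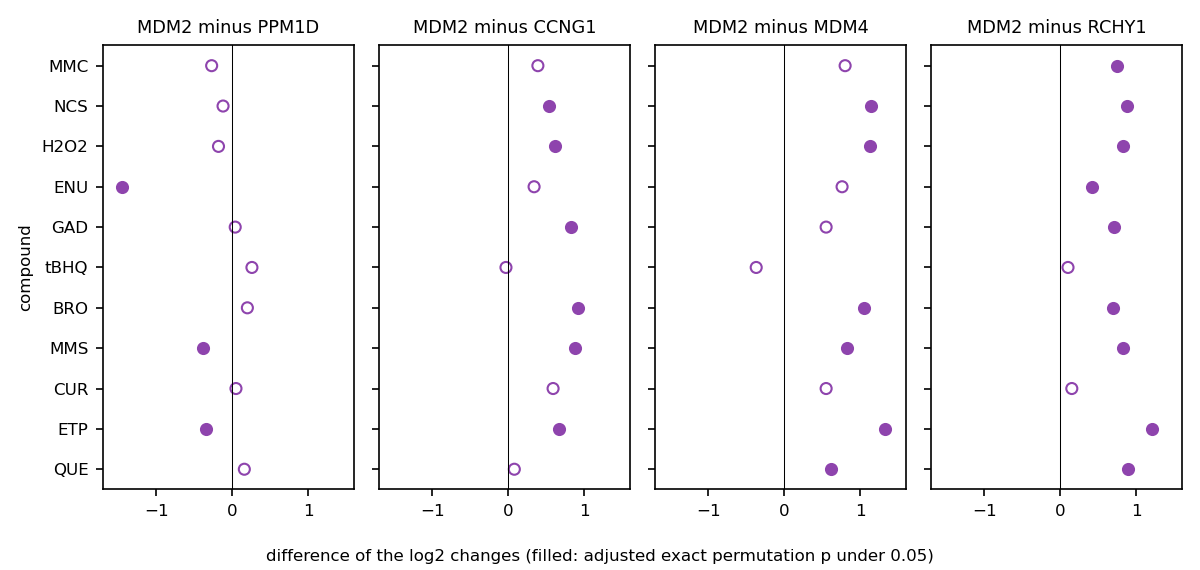
Difference of the log2 changes, MDM2 minus another gene (horizontal), in each compound (down), with filled points where the adjusted exact permutation p was under 0.05. At the brightest probe set of each gene, MDM2 changed less than PPM1D in ENU (-1.45), MMS and ETP, and more than RCHY1 in 9 compounds.

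RCHY1, read by 212749_PM_s_at, moved by less than 1.5-fold in each compound, between -0.22 in tBHQ and 0.41 in BRO. Its samples were tight, so small changes passed the test of difference in 3 compounds without the replicate block and in 5 with it. BRO samples had 8.79 to 9.23 (median 9.04), against 8.47 to 8.81 in BRO_DMSO samples (median 8.62), with 5 of 6 above every control and a change of 0.41 ± 0.09 (SE; adjusted p = 0.0039, limma). GAD samples had 9.37 to 9.54 (median 9.44), against 9.02 to 9.29 in DMSO_pooled samples (median 9.20), with no overlap and a change of 0.26 ± 0.07 (SE; adjusted p = 0.0035, limma). ENU gave 0.24 ± 0.08 (SE; adjusted p = 0.028, limma), with 5 of 6 ENU samples above every control. With the block the adjusted p was 0.0012 in BRO, 0.0059 in GAD and 0.016 in ENU (limma). The tBHQ change of -0.22 and the CUR change then passed too, with adjusted p of 0.017 and 0.019 (limma), RCHY1 being lower in 6 of 6 tBHQ pairs and higher in 6 of 6 CUR pairs.

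In CUR, where MDM2 and PPM1D were not called, all 6 samples had higher RCHY1 than all controls, at 8.85 to 9.13 (median 8.98) in CUR samples, against 8.62 to 8.84 in CUR_DMSO samples (median 8.67). The CUR change was 0.29 ± 0.08 (SE; adjusted p = 0.060, limma). In ETP, which gave the largest change of MDM2, RCHY1 stood at 9.14 to 9.54 in ETP samples (median 9.38), against 9.17 to 9.57 in ETP_DMSO samples (median 9.38), a change of -0.01 ± 0.10 (SE). The dimmer RCHY1 probe set 235300_PM_x_at had 5.58 to 6.0 in GAD samples (median 5.73), against 4.63 to 5.47 in DMSO_pooled samples (median 4.95), and rose by 0.73 ± 0.12 (SE; adjusted p = 0.00018, limma). The name of this probe set too marks probes that can also bind other transcripts. Of 15 pairs of compounds in the DMSO_pooled set, 11 passed for RCHY1, all with differences of 0.48 or less, GAD (9.44 ± 0.06) and ENU (9.43 ± 0.11) being highest and tBHQ (8.96 ± 0.18) lowest (SD, n = 6 each). MDM2 changed more than RCHY1 in 9 compounds, from 0.41 in ENU to 1.20 in ETP, the exceptions being CUR (0.15) and tBHQ (0.10).

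Other genes around p53 were described by counts and medians in lists, with no test of a list. Of 26 tested p53 targets outside the members (29 were listed), 20 rose in ENU, where 4.78% of all probe sets were called higher, 18 in ETP (1.46%) and 17 in QUE (7.09%). The count was 15 in NCS (1.08%), 13 in H2O2 (0.495%), 13 in GAD (13.4%), 12 in MMS (4.36%), 8 in BRO (3.14%) and 6 in MMC (0.0863%). It was 1 in tBHQ (5.11%) and 1 in CUR (1.05%), and 1 target was lower in GAD and 1 in tBHQ, where 13.4% and 4.47% of all probe sets were called lower. Left-out single samples moved the count of higher targets to between 6 and 13 in H2O2, to between 2 and 7 in MMC and to between 0 and 5 in CUR. In CUR it was 0 without any 1 of 6 samples, 5 without CUR replicate 5 and 2 without CUR_DMSO replicate 5. Their median change was 0.88 in ETP and 0.82 in ENU, against medians of all probe sets of -0.02 and 0.02, and -0.23 in tBHQ and 0.17 in CUR, against 0.00 and 0.06. CDKN1A, the cell cycle inhibitor p21, rose in 9 compounds, from 0.70 in MMC to 1.37 in GAD, and TP53INP1, which promotes p53-dependent cell death, rose in the same 9, up to 2.05 in ETP. ACER2, an alkaline ceramidase, rose in 8, up to 2.67 in ENU. With tBHQ CDKN1A had a change of 0.33 ± 0.09 and with CUR 0.51 ± 0.10 (SE; adjusted p = 0.012 and 0.022, limma), both under 1.5-fold.

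The proteins that act on p53 or MDM2 from outside the feedback loop were taken list by list, and the shares of all probe sets called are given for the compounds in which a gene was called. Called higher were 5.11% in tBHQ, 3.14% in BRO, 4.36% in MMS and 7.09% in QUE, and called lower were 5.41% in ENU, 13.4% in GAD and 5.76% in QUE. Of 12 other ubiquitin ligases of p53, RFFL rose in tBHQ (0.63), TOPORS in BRO (0.60) and SYVN1 in QUE (0.72), each in that compound alone. The TOPORS call was lost without any 1 of 5 samples (0.52 at the lowest). None of 4 deubiquitinases was called. USP7, which removes ubiquitin from p53 and MDM2, changed by -0.49 ± 0.11 in QUE (adjusted p = 0.0091, limma) and -0.43 ± 0.10 in ETP (adjusted p = 0.032, limma), both under 1.5-fold. USP42 had its largest change in GAD, 0.49, and OTUD5 in tBHQ, 0.33.

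Among 10 tested proteins known to restrain MDM2, HEXIM1 alone was called, lower in QUE by -0.90 ± 0.26 (SE; adjusted p = 0.022, limma). The ribosomal protein gene RPL23 ran from -0.50 in ENU to 0.52 in GAD, both passing the test but under 1.5-fold, and RPS27L, a further ribosomal protein gene, from 0.03 to 0.24. CDKN2A, whose ARF product sequesters MDM2, had group means of 3.26 to 3.87 and was not tested. Of 9 kinases that phosphorylate p53, ATM fell in ENU (-0.61 ± 0.11, adjusted p = 0.0012), ATR fell in QUE (-0.80 ± 0.11, adjusted p = 0.0015), CHEK2 rose in MMS (0.62 ± 0.17, adjusted p = 0.020) and HIPK2 rose in tBHQ by 0.70 (limma throughout). Of 15 phosphatase genes and cyclin G partners, PPP2R5A, a regulatory subunit of protein phosphatase 2A, fell in GAD (-0.68), and PPM1B (-1.21) and PPP2R1B (-0.80) fell in QUE. Without single samples ATM (ENU replicate 1 or DMSO_pooled replicate 3 or 5), CHEK2 (MMS_CTL replicate 3, to 0.44), HEXIM1 (QUE replicate 4, to -0.72) and PPP2R1B (any 1 of 7 samples) lost their calls. HIPK2 was named after its values were seen, as the fourth of 4 called kinases.

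**Figure D5:**
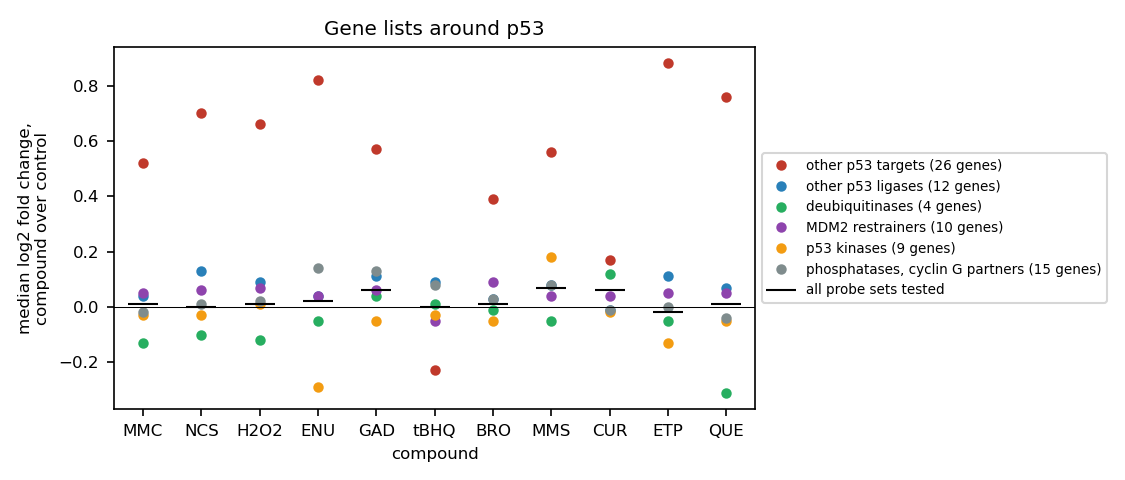
Median log2 fold change of each list of genes (points) and of all probe sets tested (black dashes) in each compound over its control. The other p53 targets stand above the remaining lists in 10 compounds, from 0.17 in CUR to 0.88 in ETP, and below them in tBHQ at -0.23.

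Genes whose 11 changes ran most like those of a member were ranked by Pearson r among 11496 genes, as a description over 11 compounds of which 6 share a control. For PPM1D these were BBC3 (r = 0.980), SESN1 (0.935) and CROT (0.933). BBC3 encodes the cell death protein PUMA, and it changed by 0.80 in ENU and -0.39 in tBHQ. For MDM2 they were CTR9 (0.918), CDKN1A (0.911) and SLC25A3 (0.909), of which CTR9 stayed between -0.31 and 0.15 and SLC25A3 between -0.12 and 0.09. CCNG1 ran with SPATA18 (0.942), which changed by 1.98 in QUE and 1.63 in ETP, and with PIGT (0.920) and SSR2 (0.916), neither of which moved by more than 0.23. MDM4 ran with KCTD2 (0.947), DMTF1 (0.945) and EIF5 (0.941), and DMTF1, like MDM4, had its highest value in GAD (0.78). RCHY1 ran with MARS2 (0.923), SETD7 (0.920) and DDX5 (0.917), each with higher values in GAD and BRO than in tBHQ. All these genes were picked for their likeness, so high and low compounds shared with a member follow from the ranking. How high the top r among 11496 genes would run by chance was not tested.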

How the data were processed

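The authors deposited log2 values, 1 for each probe set, of HT HG-U133+ PM arrays. The submitters' processing notes name Partek and GCRMA, with versions and genome build not given in the sources used here. Nothing was renormalized. Probe sets were named from the platform annotation, and those of several genes were left out. The arrays of ETP_DMSO labelled 2 and 2-2 were averaged, which left 100 replicates from 101 arrays.

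Each compound and its control were fitted with limma 3.58.1 (R 4.3.3, R package data.table, version 1.17.8), over 25479 probe sets with a group mean of at least 4, with Benjamini-Hochberg adjustment per comparison. Calls needed an adjusted p under 0.05 and 1.5-fold. Exact two-sided permutation over samples was used for MDM2 minus each other gene and between compounds. It did not keep pairs of the same number. Figures used matplotlib 3.10.9, pandas 2.3.3 and numpy 2.4.6 (scipy 1.17.1 for a check). In simulated data with known changes, limma recovered 85 to 93% of 100 probe sets changed 2-fold, with 2 to 8 false calls among 25479. A further 100 were changed 4-fold, all changed probe sets had brighter control means, and the simulated noise held no replicate effect. The recovered share therefore does not carry over to dim probe sets or to comparisons with few calls, such as MMC.

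All member probe sets were named. From each list the 3 genes called in most compounds were named (ties by mean absolute change), with CDKN1A, USP7, CDKN2A, ATM and CHEK2, and for each member the 3 genes of highest Pearson r. Listed genes with no probe set of their own in the annotation were not analysed here. The members and lists were chosen with earlier results of these data known.

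Pairing by replicate number was checked from the correlation of deviations from group means over the tested probe sets. In 8 compounds each pair was above 0.1 (lowest r 0.232). MMS (lowest r -0.288), ETP (0.055) and QUE (0.091) were below it in at least 1 pair and are treated as unpaired. Alternatives were no filter, a filter at 6, 1 probe set a gene, the mean over probe sets of 1 gene, equal medians, quantile normalization, 1 fit of all 17 groups, trended robust variances, no fold minimum, the replicate block, the repeat array left out, and each replicate left out in turn. The number of arrays limits the precision.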

Additional observations from a re-analysis of the deposited data

Results flagged for a closer look

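A sample was picked out where its gap to the nearest other sample of its group was large for the group's range (Dixon's 95% value), over the brightest probe set of each gene in 85 groups of samples, where chance alone gives about 4.25 such samples. 3 were found. ENU replicate 6 had MDM2 at 10.24, below the other ENU samples at 10.34 to 10.39, and still above all DMSO_pooled samples. QUE_DMSO replicate 4 had MDM2 at 9.43, below the other QUE_DMSO samples at 9.84 to 9.99. CUR replicate 5 had MDM4 at 8.73, above the other CUR samples at 7.19 to 7.67, and it is the sample without which MDM2 minus MDM4 passed in CUR. Causes were not tested.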

How the results depend on the processing

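MDM2 kept its direction and its side of the threshold in all 11 compounds under every setting run, with 1 exception: in MMC it was called with 1 fit of all groups (0.67, adjusted p = 3.9e-05 in limma) and with the replicate block (0.60, adjusted p = 0.018 in limma). The block changed no other call of the 5 genes' brightest probe sets, though 10 changes under 1.5-fold passed the test with it alone. For MDM2 minus MDM4 the replicate block turned signs within pairs, and since its smallest adjusted exact p was 0.060 it could call nothing: NCS kept 1.14, BRO 1.05, MMS 0.82, ETP 1.32 and QUE 0.61. MMS, ETP and QUE are treated as unpaired, so the block has no footing in these compounds. With the 5 pairs of MMC (0.66) and H2O2 (1.09) the smallest exact p the block can give is 0.062. ENU passed with the mean of probe sets (0.69). Leaving out single replicates, MDM2 minus MDM4 ranged from 0.56 to 1.01 in MMC, 0.60 to 0.93 in ENU, 0.32 to 0.86 in CUR and 0.47 to 0.69 in QUE. Member probe sets called higher numbered 5 in MMC with 1 fit of all groups and 4 with the block, 17 in GAD and 1 in tBHQ with no fold minimum, and in CUR 1 with equal medians, 1 with 1 fit, 3 with no fold minimum and 2 with the block. These counts were alternatives chosen after seeing the data. With single replicates left out they ranged from 1 to 3 in MMC, 4 to 9 in H2O2, 0 to 1 in tBHQ and 0 to 1 in CUR. Shares of all probe sets under these other settings are not given here, so none of these counts can be set against a background. Changes near 0 turned sign: RCHY1 in MMC with the mean of probe sets (0.06) and, with single replicates left out, MDM4 in MMC (-0.25 to 0.04), ENU (-0.20 to 0.05), BRO (-0.03 to 0.13) and CUR (-0.33 to 0.04), CCNG1 in tBHQ (-0.14 to 0.02) and MMS (-0.01 to 0.09), and RCHY1 in ETP (-0.05 to 0.03). PPM1D was called in MMC with the mean of probe sets (0.92) and 1 fit (0.94). The causes of these moves were not tested, and signal over background limits the dim probe sets.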
